A study of Danio rerio with 6 samples.

Results

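Antioxidant enzymes and the regulators of the transcription factor Nrf2 were examined in whole zebrafish (Danio rerio) embryos. They comprised 10 genes, each matched by its symbol to 1 row of a deposited table of 31624 genes: the regulators nfe2l2a, keap1a and keap1b, the superoxide dismutases sod1 and sod2, the catalase gene cat, and the glutathione peroxidases gpx1a, gpx3, gpx4a and gpx4b. RNA-seq was performed at 72 hours post fertilization (hpf) on 3 wild type samples and 3 rhpn2 mutant samples, each lettered a to c, from embryos raised in E3 solution. The labels describe the mutants as rhpn2 knockouts and name no allele, background strain, parents, clutch or number of embryos per sample, so the p-values describe variation among these 6 samples, part of which may be technical. The column names of the mutant samples carry rhpn2-1, and what the 1 stands for is not stated. Mutants were set against wild type to learn how these genes respond to loss of rhpn2, the gene of rhophilin-2.

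Superoxide dismutases turn superoxide into hydrogen peroxide, and catalase and glutathione peroxidases then reduce the peroxide. Nrf2, the product of nfe2l2a in zebrafish, is a bZIP transcription factor that binds antioxidant response elements together with small Maf proteins and raises expression of many detoxifying and redox genes. Keap1 proteins, of which zebrafish has the copies keap1a and keap1b, hold Nrf2 for ubiquitination by a Cul3 ligase. Oxidative or electrophilic stress reduces this ubiquitination. In the deposited Gene Ontology terms, 6 of the 10 genes carried response to oxidative stress, a term given to 32 genes of the table, and both keap1 copies were placed in the Cul3-RING ubiquitin ligase complex.

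Library totals ran from 14918069 to 17056923 counts, with 23729 to 24014 genes detected per library. Expression of rhpn2 checked the labels: wild type samples had 685, 755 and 743 counts and mutant samples 195, 194 and 188, a mutant level of 23.0% of wild type. Genes listed as markers of liver, intestine, red blood cells, photoreceptors and lens were detected, and none of the 4 marker lists held a gene at 0 in all 6 samples. The most abundant genes of the liver and intestine lists, apoa2 and apoa4b.1, averaged 3870 and 537 FPKM in wild type. Bulk RNA of whole embryos does not show which tissue a transcript came from. It also does not separate fewer cells of a type from less RNA per cell.

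Of the 10 genes, 8 were lower in mutants, 1 (keap1b) was higher and 1 (gpx4a) did not pass an adjusted p of 0.05 in edgeR's quasi-likelihood test. All 10 genes passed the filter on low counts. Over all 20032 genes tested, 33.2% were called, with 16.5% higher and 16.7% lower. The median log2 change was -0.49 for the 10 genes and 0.006 for all genes tested. Because the 10 genes were chosen with earlier results of these data known, these shares and medians are a description and not a test. Changes ran from a 5.02-fold fall of gpx3, through a 1.74-fold fall of nfe2l2a, to falls between 1.30-fold and 1.47-fold for 6 other genes. Changes at least as large, in either direction, were found in 0.998% of tested genes for gpx3 and 13.4% for nfe2l2a. For the 6 other falls this share was 24.6% to 39.6%, and for keap1b 46.0%. In wild type FPKM, nfe2l2a, sod1, sod2, cat, gpx1a, gpx4a and gpx4b lay above 86.1% to 98.1% of tested genes. The shares called over all genes were not matched for level. None of the 10 genes lies on the chromosome of rhpn2, chromosome 7. Among the redox list genes named below, nqo1, ccs, slc3a2a and sepsecs lie on it. Whether linkage to rhpn2 had a part in their changes was not tested. Log2 changes are relative to the TMM scale of edgeR, whereas FPKM values are scaled by library totals, which put the median over all genes at 0.113 instead of 0.006.

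**Figure D1:**
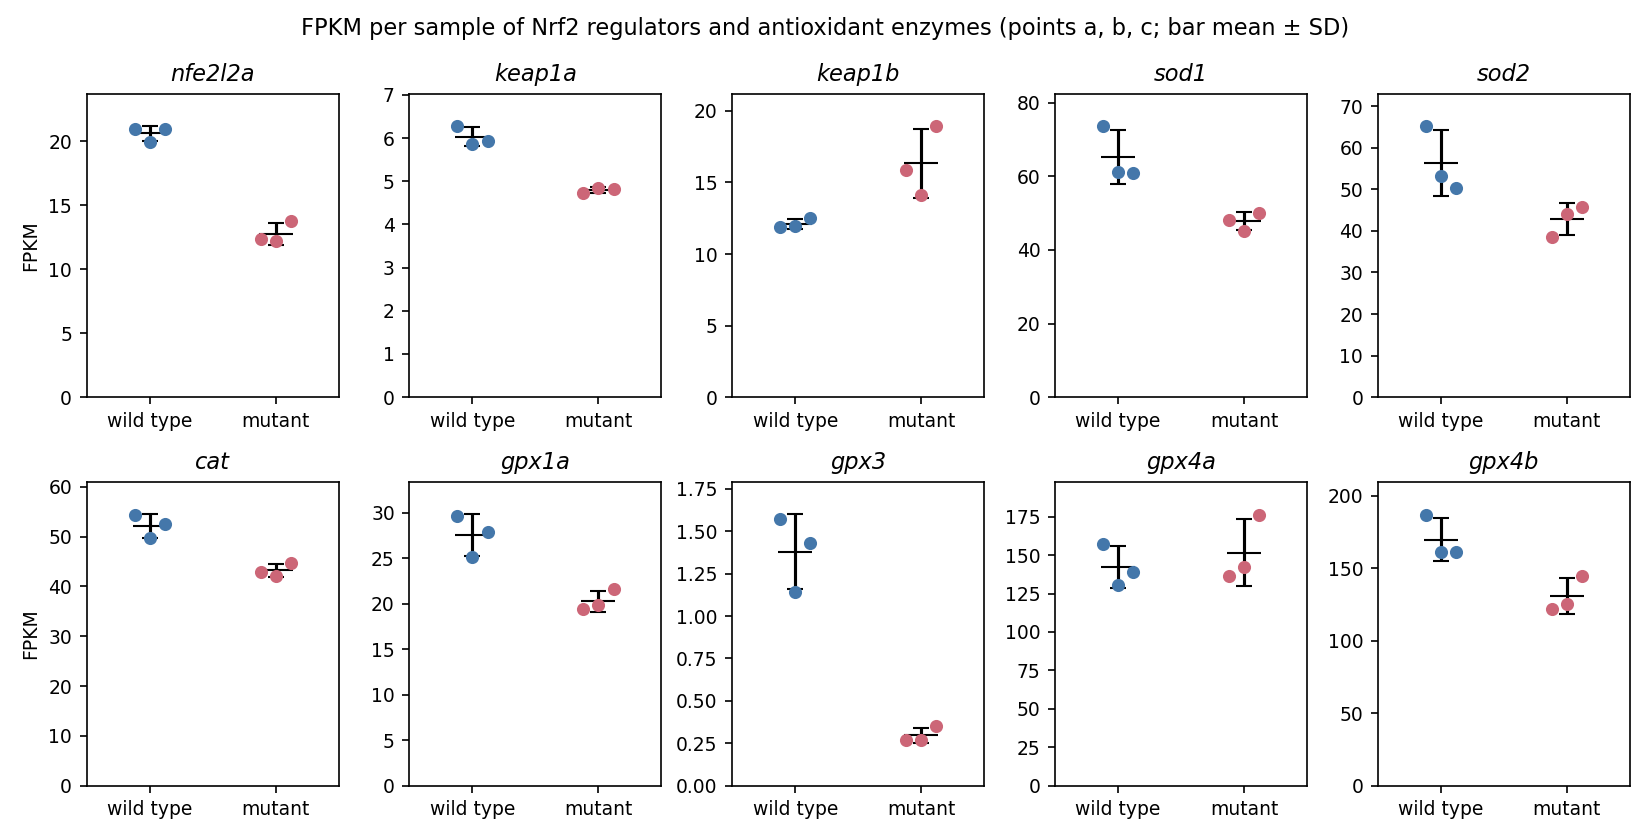
FPKM (linear axes from 0) of the 10 genes in each of the 3 wild type (blue) and 3 mutant (red) samples, with the group mean and SD as bars. The groups overlap only for gpx4a, keap1b is higher in mutants, and the other 8 genes are lower in every mutant sample than in any wild type sample.

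The FPKM ranges of the groups did not overlap for 9 of the 10 genes, 8 lower and 1 higher in mutants, against 49.0% of all tested genes without overlap, 17.3% lower and 31.7% higher. Tested by exact two-sided permutation, log2(FPKM + 1) gave p = 0.1 for each of these 9 genes, the smallest value that 3 samples against 3 allow, and p = 0.6 for gpx4a.

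The Nrf2 gene nfe2l2a fell in mutants, and its keap1 partners moved apart. For nfe2l2a (chromosome 9, 1652136 to 1681220, plus strand) the samples, in the order a, b, c here and below, had 20.94, 19.94 and 20.92 FPKM in wild type and 12.32, 12.17 and 13.72 in mutants. The 3 mutant samples lay close together and well below all wild type samples. Its mean went from 20.6 ± 0.572 to 12.7 ± 0.855 (SD, n = 3 each), and edgeR put the log2 change at -0.80 (SE 0.10, adjusted p 6.2e-05). Counts of 944 to 1513 per library lay behind these values.

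The 2 keap1 copies had changes of opposite sign. For keap1a (chromosome 2, 41985607 to 42011622, minus strand) wild type samples had 6.28, 5.87 and 5.94 FPKM and mutant samples 4.72, 4.84 and 4.83. All mutant samples were lower, with a log2 change of -0.44 (SE 0.12, adjusted p 0.0125 by edgeR). The call was lost with limma on log2(FPKM + 1) and on log2(FPKM + 0.1), at adjusted p of 0.0586 and 0.0539. For keap1b (chromosome 6, 113947 to 120552, minus strand) wild type samples had 11.90, 11.94 and 12.51 FPKM and mutant samples 15.90, 14.15 and 18.94. Every mutant sample was higher, and the mutants spread more widely (16.3 ± 2.42) than wild type (12.1 ± 0.341; SD, n = 3 each). Its log2 change of 0.32 (SE 0.12, 95% interval 0.07 to 0.57) had an adjusted p of 0.0465 by edgeR, just inside the threshold. With DESeq2 the adjusted p was 0.0552, and after quantile normalization in limma 0.0627. Without mutant c, the highest sample, the change was 0.19 with an adjusted p of 0.223, and the call was also lost without wild type b (0.115), wild type c (0.107) or mutant a (0.0699). The span of keap1b lies inside that of ap1m2 on the opposite strand. Wild type samples had 361, 346 and 386 counts of ap1m2 and mutant samples 288, 320 and 318, against 570 to 910 per library for keap1b. The sources used here do not say whether reads were counted by strand, so whether those of opposite strands were kept apart is not known.

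Ratios within a library do not depend on the scaling between libraries and showed the same separation of the keap1 copies. The log2 ratio of keap1a to keap1b was -0.92, -1.02 and -1.07 in wild type and -1.75, -1.55 and -1.97 in mutants. The mutant ratios were lower in all 3 samples, by 0.75 on the log2 scale (1.68-fold). In shares, keap1b made up 66.8% ± 1.2 of the summed keap1 FPKM in wild type and 77.1% ± 2.58 in mutant samples (SD, n = 3 each). The sum of both copies, which unlike a ratio depends on the scaling by library totals, was 17.8 to 18.4 FPKM in wild type and 19.0 to 23.8 in mutants. The log2 ratio of nfe2l2a to that sum was 0.20, 0.16 and 0.18 in wild type and -0.74, -0.64 and -0.79 in mutants. It was lower in all mutant samples, by 0.91 on the log2 scale (1.88-fold), and SDs were 0.02 and 0.08. For each of these ratios the exact two-sided permutation test gave p = 0.1, the smallest possible. With Benjamini-Hochberg adjustment no p of the 4 ratios tested can fall below 0.1.

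**Figure D2:**
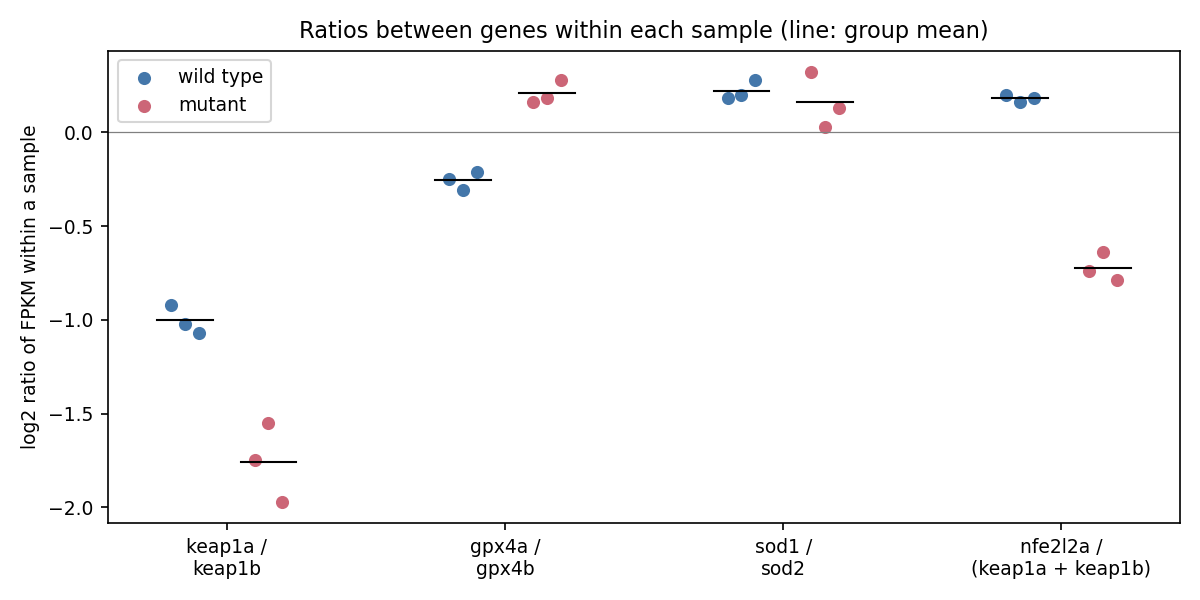
Log2 ratio of FPKM between 2 genes, or a gene and a sum, within each sample, for wild type (blue, n = 3) and mutants (red, n = 3), with lines at the group means. The groups separate for keap1a to keap1b, gpx4a to gpx4b and nfe2l2a to the keap1 sum, and overlap for sod1 to sod2.

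Both superoxide dismutase genes fell. The cytosolic copper-zinc enzyme gene sod1 (chromosome 10, 25732682 to 25737741, minus strand) had 73.67, 61.08 and 61.03 FPKM in wild type and 48.26, 45.11 and 50.09 in mutants. Its mutant samples were all lower, with a log2 change of -0.56 (SE 0.11, adjusted p 0.00227 by edgeR), and wild type a was the highest sample. The mitochondrial manganese enzyme gene sod2 (chromosome 20, 31035055 to 31044668, plus strand) had 65.23, 53.25 and 50.23 FPKM in wild type and 38.62, 44.16 and 45.85 in mutants. Again wild type a was highest and no sample of the groups overlapped, with a log2 change of -0.50 (SE 0.13, adjusted p 0.0101 by edgeR). Without wild type a the changes were -0.43 for sod1 and -0.35 for sod2, with adjusted p of 0.00183 and 0.0173 by edgeR. Wild type a was the highest wild type sample for all of the 10 genes except keap1b. Without wild type a the falls of gpx4b, gpx1a and keap1a were also smaller, at -0.38, -0.47 and -0.38. The log2 ratio of sod1 to sod2 was 0.18, 0.20 and 0.28 in wild type and 0.32, 0.03 and 0.13 in mutants. These overlapped, with a difference of -0.06 and an exact two-sided permutation p of 0.5. The span of sod2 overlaps that of wtap on the opposite strand, a gene with 1391 to 1603 counts per library against 801 to 1206 for sod2.

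The catalase gene cat, whose heme enzyme works in peroxisomes, had the smallest fall of the 8. On chromosome 25 (7318706 to 7328383, plus strand) wild type samples had 54.26, 49.64 and 52.49 FPKM and mutant samples 42.96, 42.13 and 44.64. All mutant samples were lower, and the spread within groups was small (52.1 ± 2.33 and 43.2 ± 1.28; SD, n = 3 each). By edgeR the log2 change was -0.38 (SE 0.09, adjusted p 0.0072).

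Among the glutathione peroxidases, gpx3 fell most, gpx1a and gpx4b fell less, and gpx4a did not pass the test. In mammals GPX3 is the secreted enzyme of plasma, GPX1 is the abundant enzyme of cytosol and mitochondria, and GPX4 reduces lipid hydroperoxides in membranes. For gpx3 (chromosome 14, 50452130 to 50472652, minus strand) the counts were 124, 88 and 113 in wild type and 24, 23 and 27 in mutants, and FPKM was 1.57, 1.14 and 1.43 against 0.27, 0.27 and 0.35. The groups were far apart. The mutant level was 19.9% of wild type, a log2 change of -2.33 (SE 0.23, adjusted p 1.54e-05 by edgeR), and 146 of the 20032 tested genes had a lower log2 change. With limma on log2(FPKM + 1), where the pseudocount is near the level of this gene, the change was -0.87 and the adjusted p 0.000311. The span of gpx3 lies within that of tnip1 on the opposite strand, which had 1451 to 2220 counts per library.

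For gpx1a (chromosome 11, 35786596 to 35894988, minus strand) wild type samples had 29.64, 25.09 and 27.82 FPKM and mutant samples 19.42, 19.80 and 21.59. Mutant samples were all lower, with a log2 change of -0.55 (SE 0.11, adjusted p 0.00237 by edgeR). Its span of 108393 bases overlaps brk1 on the same strand, with 1651 to 1975 counts per library, and tex264b on the opposite strand, with 14 to 27. Reads shared with brk1 would make the gpx1a value uncertain.

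The gpx4 copies differed. For gpx4b (chromosome 2, 56518293 to 56531924, minus strand) wild type samples had 186.99, 161.44 and 160.82 FPKM and mutant samples 122.12, 125.39 and 144.80, lower in every mutant sample. Its log2 change was -0.49 (SE 0.11, adjusted p 0.00589 by edgeR). For gpx4a (chromosome 22, 17564630 to 17586764, minus strand) wild type samples had 157.29, 130.44 and 139.02 FPKM and mutant samples 136.26, 142.05 and 176.39. The groups overlapped, and mutant c was the highest of the 6 samples. The log2 change was -0.02 (SE 0.13, adjusted p 0.929 by edgeR) with a 95% interval of -0.29 to 0.26, so changes of up to about that size remain possible in either direction. The sign of this value turned with library totals, at 0.09. The span of polr2eb, with 524 to 732 counts per library, lies within that of gpx4a on the opposite strand.

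Within each library the log2 ratio of gpx4a to gpx4b was -0.25, -0.31 and -0.21 in wild type and 0.16, 0.18 and 0.28 in mutants. It was below 0 in all wild type and above 0 in all mutant samples, a difference of 0.46 (1.38-fold) with an exact two-sided permutation p of 0.1, the smallest possible. The share of gpx4a in the summed gpx4 FPKM was 45.6% ± 0.843 in wild type and 53.6% ± 1.17 in mutant samples (SD, n = 3 each). The keap1 and gpx4 copies lie on different chromosomes, and whether reads that match both copies of a pair were split between them is not known here.

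**Figure D3:**
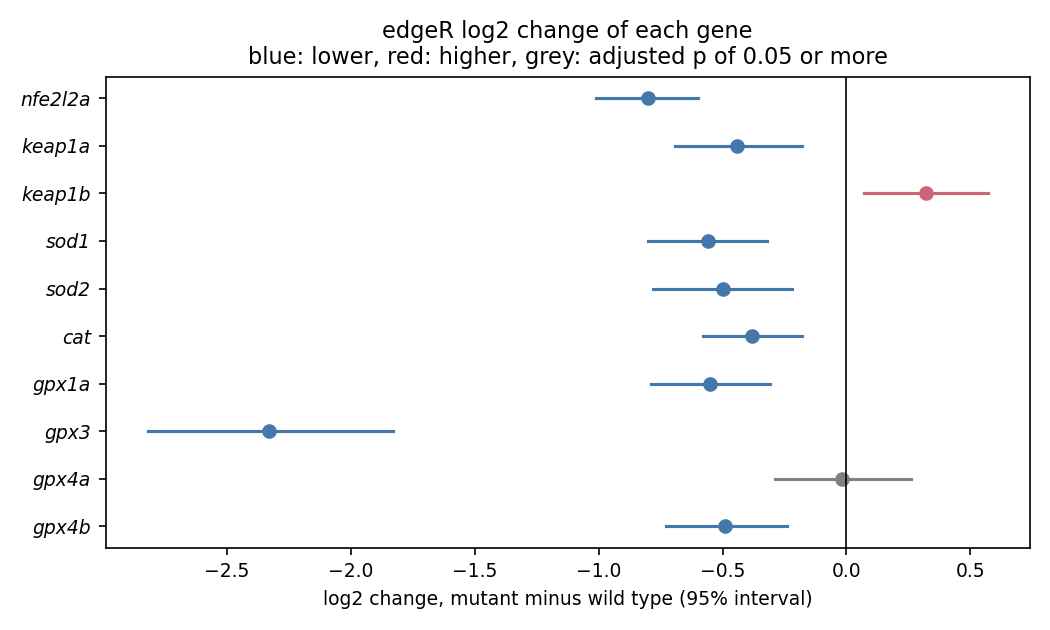
Log2 change (mutant minus wild type) of each of the 10 genes from edgeR, with its 95% interval. Intervals of the 8 lower genes (blue) lie below 0, that of keap1b (red) lies from 0.07 to 0.57, and that of gpx4a (grey) spans 0.

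Levels set per gene length spanned from 170 ± 14.9 FPKM for gpx4b to 1.38 ± 0.219 for gpx3 in wild type (SD, n = 3 each). In descending order the wild type levels were gpx4b, gpx4a, sod1, sod2, cat, gpx1a, nfe2l2a, keap1b, keap1a and gpx3. The samples of neighbours overlapped for sod1 with sod2 and for sod2 with cat. In mutants gpx4a averaged 152 ± 21.7 FPKM and gpx4b 131 ± 12.3, with overlapping samples, and keap1b averaged 16.3 ± 2.42 against 12.7 ± 0.855 for nfe2l2a. The 7 enzymes together summed to 515 ± 47.2 FPKM in wild type and 437 ± 41.0 in mutants, with overlapping samples (482 to 569 and 408 to 484). Both gpx4 copies made 312 ± 28.2 FPKM of this sum in wild type and 282 ± 34.0 in mutants, and the wild type and mutant samples of the gpx4 sum overlapped. The sum of sod1 and sod2 was 111 to 139 FPKM in wild type and 86.9 to 95.9 in mutants, without overlap. Overlap or its absence in these sums depends on the scaling of FPKM by library totals.

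Genes of the wider redox network were taken from 6 lists that did not hold the 10 genes. Together 37 of 110 tested list genes were called (33.6%), a share close to the 33.2% of all genes tested, with 7 higher (6.36%, against 16.5% of all genes) and 30 lower (27.3%, against 16.7%). Under library totals the split was 10 higher and 20 lower, and with limma on log2(FPKM + 1) it was 12 and 20. All genes also shifted toward higher there. Their split was 4424 higher and 2377 lower with library totals and 4378 and 2375 with limma, against 3307 and 3347 with TMM. Without mutant b the count was 24, with 7 higher and 17 lower, while calls over all genes went from 6654 to 4886.

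Of 34 genes listed as Nrf2 targets from knowledge of fish or mammals, 12 fell (35.3%) and none rose, and their median was -0.28 on the log2 scale. Over all genes tested 33.2% were called and 16.7% fell, so the share called is near that of all genes. The glutathione S-transferase gene gstp2 fell most, from 7.53, 8.14 and 8.26 FPKM in wild type to 1.21, 1.26 and 1.22 in mutants (log2 change -2.80, SE 0.21, adjusted p 2.41e-06 by edgeR). Its close copy gstp1, at 266 and 281 FPKM, did not pass, with a log2 change of -0.03 and an adjusted p of 0.863, but was higher in mutants after quantile normalization (0.31, adjusted p 0.0087 by limma). The conjugate export pumps abcc2 and abcc4 fell, at -0.67 and -0.57 on the log2 scale, and the epoxide hydrolase gene ephx1 fell by 1.11, although its span overlaps 7 other genes and its reads may be shared. Among targets often used as readouts of Nrf2, nqo1 fell (log2 change -0.49, adjusted p 0.00464), whereas the heme oxygenase gene hmox1a was at 0.17 (adjusted p 0.432) and the glutamate-cysteine ligase genes gclc and gclm, from the glutathione list, were at -0.07 and 0.03 (adjusted p 0.613 and 0.87). With library totals and with limma on FPKM 8 targets fell and 1 rose. Over all genes 2377 fell and 4424 rose with library totals, and 2375 and 4378 with limma on log2(FPKM + 1).

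Among the relatives and partners of Nrf2, the second Nrf2 gene had the smallest p. Of 17 genes for Nrf relatives, small Maf and Bach factors and the Cul3 ligase, 3 fell and 1 rose (23.5% called, against 33.2% of all genes tested), and the median was 0.02 on the log2 scale. The split turned to 1 fall and 3 rises with limma on log2(FPKM + 1), to 1 and 2 with log2(FPKM + 0.1), and to 2 and 3 without wild type c, and without mutant b it was 1 and 1. All genes gave 2375 falls and 4378 rises with the first of these fits and 2341 and 4300 with the second. Without wild type c they gave 3006 and 2760, and without mutant b 2511 and 2375. The second Nrf2 gene, nfe2l2b, reported to act as a repressor in zebrafish embryos, had 4.01, 2.61 and 3.71 FPKM in wild type and 1.11, 0.96 and 0.80 in mutants. It fell in every mutant sample (log2 change -1.95, SE 0.21, adjusted p 3.08e-05 by edgeR). The relative nfe2l1a fell by 0.65 and bach1b, a copy of the gene for the heme-sensing repressor Bach1, fell by 0.50 on the log2 scale, while bach2b rose by 0.76. The calls of bach1b (adjusted p 0.0588) and nfe2l1a (0.0647) were lost without mutant b, and that of nfe2l1a also without wild type c (0.0568). With limma on FPKM, without quantile normalization, both were lost, at 0.0676 to 0.0693 and 0.0616 to 0.0727. The Cul3 genes cul3a and cul3b, at -0.15 and 0.13, did not pass (adjusted p 0.193 and 0.298).

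Other genes of peroxide and superoxide enzymes that were called all fell, while the chaperone gene ccs of the same list rose. This list held 8 genes, for further glutathione peroxidases and superoxide dismutases and for ccs, the copper chaperone of Sod1. Of these, 3 enzyme genes fell and 1 gene, ccs, rose (4 of 8 called, against 33.2% of all genes), with a median of -0.28. The endoplasmic reticulum enzyme gene gpx8 fell by 0.89, the extracellular dismutase gene sod3b by 1.16 and gpx1b by 0.69 on the log2 scale. For gpx1b the call was lost with library totals (adjusted p 0.065) and without wild type a or c or mutant a or b (0.0554 to 0.135). The sod3b span overlaps that of stox2a on the opposite strand, a gene with 5500 counts over all samples against 150 for sod3b. In contrast to sod1, ccs rose from 1.71, 1.93 and 2.26 FPKM to 4.39, 3.58 and 3.56 (log2 change 0.86, SE 0.17, adjusted p 0.00224 by edgeR).

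Thioredoxin and peroxiredoxin genes fell in 6 of 17 tested cases (35.3%) and none rose, and the median was -0.16 on the log2 scale. Over all genes tested 33.2% were called, 16.7% lower and 16.5% higher, so the share called was near that of all genes. The peroxiredoxin gene prdx2 led, with 339.53, 307.77 and 280.11 FPKM in wild type and 170.58, 176.02 and 216.43 in mutants (log2 change -0.83, SE 0.13, adjusted p 0.000383 by edgeR). The falls of prdx5 (-0.36), the methionine sulfoxide reductase gene msra (-0.70) and txnipa (-0.29) were smaller or closer to the threshold. The count fell to 2 with library totals and without mutant a, mutant b or mutant c, and to 3 with totals taken without the 50 most abundant genes. Calls over all genes went from 6654 to 4968, 4886 and 5066 without mutant a, b and c. They were 6801 with library totals, of which 2377 were lower. With limma on FPKM, 2 genes of the list rose and 3 fell, and after quantile normalization 2 rose and 5 fell. Over all genes 4378 rose and 2375 fell with limma on log2(FPKM + 1), and 3413 and 3256 after quantile normalization. The call of prdx5 was lost with library totals (adjusted p 0.058) and without mutant a (0.064) or mutant b (0.0675), that of msra without wild type b, mutant b or mutant c (0.0544 to 0.0799), and that of txnipa in 10 of 15 alternatives.

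Of 17 glutathione synthesis and recycling genes, 4 fell and 1 rose, a share called of 29.4% near the 33.2% of all genes tested, with a median of -0.07. The amino acid transporter subunit genes slc3a2a and slc3a2b fell, at -0.36 and -0.38 on the log2 scale, as did the glutaredoxin genes glrx and glrx5, at -0.51 and -0.40, while glrx3 rose by 0.36. The call of slc3a2b was lost without mutant b (adjusted p 0.0587).

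The glutathione peroxidases of vertebrates include selenoproteins. Of 17 genes for making selenocysteine and for other selenoproteins, 4 rose and 2 fell, a share called of 35.3% near the 33.2% of all genes tested, with a median of -0.13. The rises were in sephs1 (0.61), sepn1 (0.62), selm (0.76) and the selenophosphate synthetase gene sps2 (0.38). The falls were in fam213aa (-0.91), listed as selenou1a in the gene name table, and sepsecs (-0.56), the synthase that forms selenocysteine on its tRNA. The call of sepsecs was lost in 7 of 15 alternatives, among them library totals (adjusted p 0.0809) and leaving out wild type c, mutant b or mutant c (0.0557 to 0.106).

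**Figure D4:**
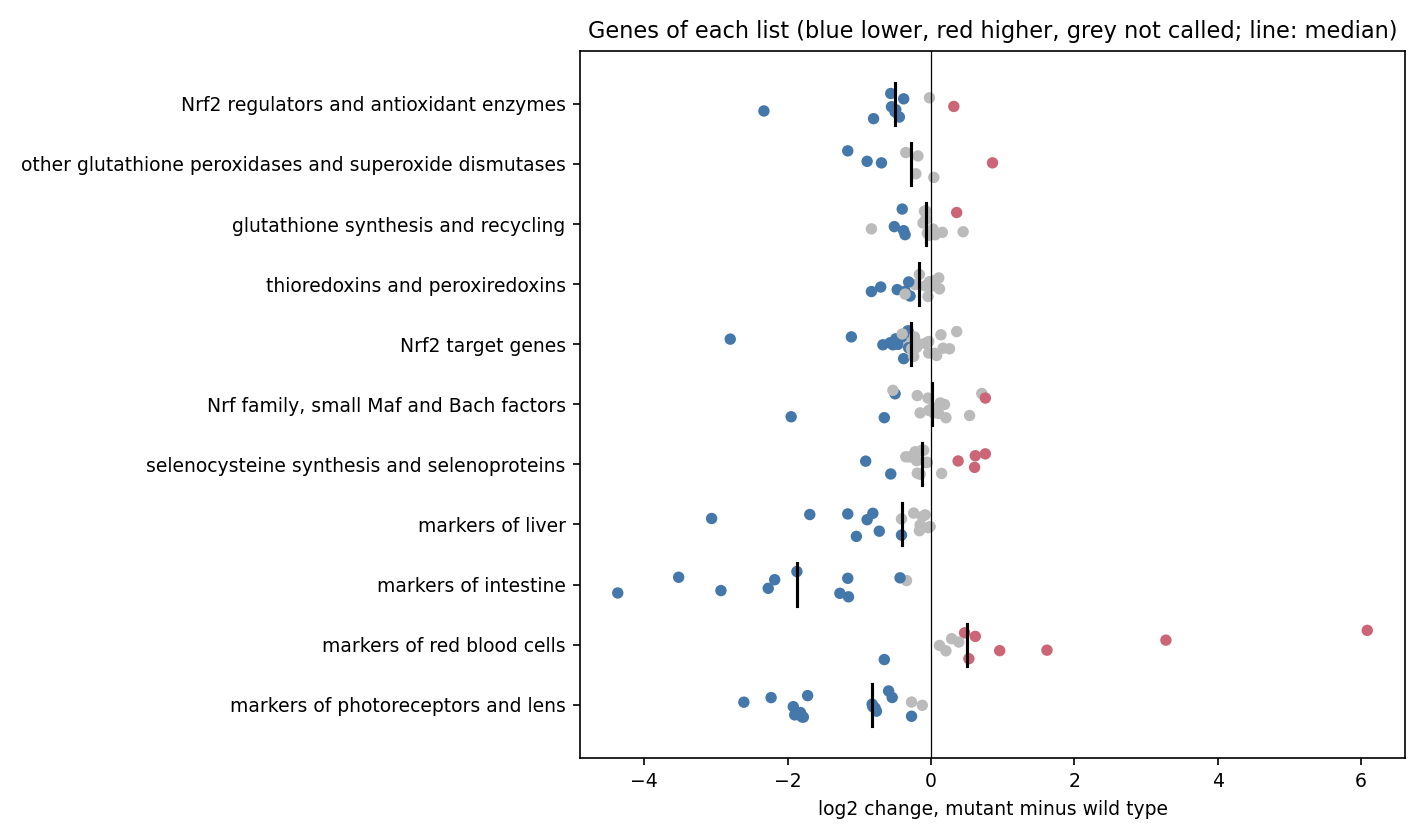
Log2 change (mutant minus wild type, TMM scale) of each tested gene in the 10 genes (top), the 6 redox lists and the 4 tissue marker lists, coloured by edgeR call, with the median as a line. Medians of the redox lists lie between -0.28 and 0.02, against -0.49 for the 10 genes and -1.87 for intestine markers.

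The Gene Ontology terms of the deposited table gave one more list. Of 26 further genes annotated with response to oxidative stress, 10 fell and 1 rose (42.3% called, against 33.2% of all genes tested), with a median of -0.27, and some of these also stand in the lists above. The riser was mpx, the myeloperoxidase gene of zebrafish neutrophils, from 4.56, 4.29 and 3.75 FPKM to 8.57, 8.73 and 8.39 (log2 change 0.92, adjusted p 9.64e-05 by edgeR). The hydrogen peroxide producing oxidase gene duox fell by 1.79 on the log2 scale (adjusted p 0.000102 by edgeR). Both were named after their values were seen.

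Genes listed as markers of several tissues also differed between mutants and wild type, and the part of tissue composition in the changes of the 10 genes was not tested. For comparison with the marker counts that follow, 33.2% of all genes tested were called, 16.7% lower and 16.5% higher. Of 11 intestine markers 10 fell and none rose, with a summed level of 672 to 780 FPKM in wild type and 471 to 633 in mutants. Most of that sum came from apoa4b.1, which did not pass and averaged 537 FPKM in wild type and 456 in mutants. Of 16 tested liver markers 8 fell and none rose, with summed levels of 5960 to 7080 FPKM and 4390 to 5880, whereas the fibrinogen genes fga, fgb and fgg had log2 changes of -0.08, -0.01 and -0.12 and did not pass. Most of the liver sum came from apoa2, which did not pass and averaged 3870 FPKM in wild type and 3130 in mutants. Of 17 tested photoreceptor and lens markers 15 fell and none rose, with summed levels of 4880 to 5230 FPKM and 2380 to 3180. Red blood cell markers went the other way: 7 of 12 rose and hbbe2 fell, with summed levels of 3220 to 3710 FPKM and 4070 to 5310. Most of this sum came from hbae3, which did not pass and averaged 2470 FPKM in wild type and 3260 in mutants. The 7 risers were hbbe3 (log2 change 6.09), hbae1 (3.28), slc4a1a (1.62), alas2 (0.96), tal1 (0.62), sptb (0.53) and epb41b (0.47). The transcription factor genes gata1a (0.39) and klf1 (0.12) of this list did not pass, with adjusted p of 0.259 and 0.687 by edgeR. Wild type samples had only 14 to 32 counts of hbbe3, and the span of hbae1 overlaps that of hbbe1.1 on the opposite strand. Among the most abundant markers, rbp4 fell by 0.81, fabp2 by 1.16, cryba4 by 0.78 and crybb1 by 0.81 on the log2 scale, while apoa2 (-0.41), apoa4b.1 (-0.34), hbae3 (0.29) and hbbe1.1 (0.21) did not pass. These 4 genes passed in some alternatives: apoa2 and apoa4b.1 fell with DESeq2 (adjusted p 0.0153 and 0.037), without a filter on low counts (0.0275 and 0.0442) and without mutant c (0.0127 and 0.016), and apoa2 also without wild type c (0.0398). The globin gene hbae3 rose with library totals (0.0158), with limma on FPKM (0.0419 to 0.0461), after quantile normalization (0.000413) and without wild type a (0.0422), and hbbe1.1 rose after quantile normalization (0.00866).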

How the data were processed

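The authors deposited 1 table with whole-number read counts and FPKM values for 6 samples. Recomputed from the table, deposited FPKM is the count per exonic gene size and per library total (ratio of implied to actual total 1.0). The submitters' processing notes list Salmon 1.9.0, STAR 2.7.10a, fastp 0.23.2 and bcl2fastq 2.20.0.422 without saying what each did, and libraries were made with a NEBNext Ultra RNA kit, per the labels' protocols. The sources used here give no counting tool, genome build or strand setting, so coordinates are those of the table. Counts of same-group libraries differed well beyond sampling noise (chi-square over degrees of freedom 4.19 to 14.48). Wild type a differed most, at 11.82 from wild type b and 14.48 from wild type c, against 4.19 between b and c. Each library was taken as 1 sample, though this spread cannot show whether the libraries came from separate embryos.

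Counts were tested with edgeR 4.0.16 in R 4.3.3 (quasi-likelihood, TMM, filterByExpr with a minimum count of 10 and total of 15, group as the only term), with Benjamini-Hochberg adjustment over 20032 genes at 0.05. SEs are the log2 change divided by the square root of F. DESeq2 1.42.0 and limma 3.58.1 were alternatives. Of 181 list symbols, 168 were found. The 10 genes and all lists were chosen with earlier results of these data known, so no set was tested. Named list genes are the 4 called genes with the smallest p per redox list and the 2 most abundant per marker list; others were named after their values were seen. In counts simulated over 20032 genes, 50 genes were changed at each fold tried and 19832 were left unchanged. There edgeR called 28 (56%), 43 (86%), 49 and 50 of the 50 genes changed 1.5-fold, 2-fold, 4-fold and 8-fold. It also called 17 of the 19832 unchanged genes. Far fewer genes changed there than the 33.2% called here, so these values give neither the power nor the share of false calls of this comparison. A planned search of promoters for response elements was not run. A count of 3 equals 0.176 to 0.201 CPM per library.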

Additional observations from a re-analysis of the deposited data

How the results depend on the processing

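Over 15 alternatives, 6 of them leaving out a library, nfe2l2a, sod1, sod2, cat, gpx1a, gpx3 and gpx4b kept their direction and call. The count of called genes among the 10 was 8 or 9 in every alternative, and 4886 to 6710 of all genes were called without a library. The gpx4a change was above 0 with library totals (0.09), limma (0.09 at both pseudocounts), quantile normalization (0.18), totals without the 50 most abundant genes (0.05), and without wild type a (0.09), mutant a (0.07) or mutant b (0.03), and over all left-out libraries it ran from -0.15 to 0.09. Small changes of gstp1, gclc and gclm that had not passed also turned sign: gstp1 to 0.08 with library totals and with limma at both pseudocounts, 0.31 with quantile normalization, 0.03 with totals without the 50 most abundant genes, and -0.12 to 0.09 over left-out libraries; gclc to 0.04 with library totals and 0.03 with limma; and gclm between -0.05 and 0.13 over left-out libraries. The cause was not tested. Leaving out a library moved the difference in the sod1 to sod2 ratio between -0.14 and 0.01, and the count of called redox list genes between 24 and 37. Of all called genes, 49.7% were higher with TMM and 65.0% with library totals. Totals without the 50 most abundant genes and quantile normalization were chosen after the data were seen. Deviations from the group means correlated at -0.154, -0.044 and -0.221 between same-letter samples of the groups, and at -0.015 to 0.213 between different letters. Because deviations from a mean of 3 samples sum to 0 within a group, these values cannot settle whether the letters pair the samples. With the letter as a replicate block 5356 genes were called, 8 of the 10 genes among them, and keap1b did not pass (adjusted p 0.0772). The low counts of gpx3 limit the precision of its fold change.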
